A study of Homo sapiens with 14 samples.

Results

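A group of 10 genes of the G1 phase of the cell cycle was followed across beta-catenin loss and gain in cultured human progenitors of the MGE type. The MGE, or medial ganglionic eminence, is the part of the ventral forebrain that gives rise to many cortical interneurons. The genes were taken by symbol from a list of G1 regulators often named as candidate WNT targets for proliferation: the D cyclins CCND1, CCND2 and CCND3, the kinases CDK4 and CDK6, the transcription factors MYC and MYCN, and CDKN1B, CCNG2 and BTG3, which restrain proliferation. All 10 were found among the 58051 genes of the deposited table, and all 10 passed the filter on low values. Measured levels played no part in the listing rule, although it was drawn up with earlier results of these data known.

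All cells derived from H9, an established human embryonic stem cell line, and all were collected on day 25 of differentiation. In every culture TGF-beta and BMP signalling had been blocked over days 0 to 6 with 2 µM SB431542 and 200 nM LDN193189. Ventral fate was then directed over days 10 to 17 with 250 ng/mL SHH and 0.3 µM purmorphamine, which activates smoothened. The 3 libraries called OE with Dox carried an inducible CTNNB1 overexpression construct and had doxycycline (Dox) at 0.1 µg/mL from day 17 to day 25. The 3 libraries called OE without Dox came from the same overexpression genotype with no drug. The 5 KO libraries came from cells labelled as knockout for CTNNB1, which encodes beta-catenin, and the 3 WT libraries were wild type. The labels give neither the form of CTNNB1 or promoter in the construct, nor how the knockout was made, nor whether lines are single clones or replicates separate differentiations, so p-values measure the spread between libraries, which may be technical. No WT library received Dox, so the drug and the transgene cannot be told apart.

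As background, D cyclins are the regulatory subunits of CDK4 and CDK6, and the active kinase phosphorylates the RB protein, which frees E2F factors to switch on genes of DNA replication. MYC and MYCN are related transcription factors that drive growth and entry into the cycle, and MYCN is the member usually associated with neural progenitors. CDKN1B encodes p27, an inhibitor of cyclin-dependent kinases, CCNG2 encodes cyclin G2, an unconventional cyclin linked to arrest, and BTG3 belongs to the anti-proliferative BTG/TOB family. When WNT signalling stabilises beta-catenin, it binds TCF/LEF factors at target genes, and CCND1 and MYC are textbook targets from colon cancer cells.

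The values are normalized read counts, that is, reads assigned to a gene divided by 1 size factor per library. Between 5233270 and 5639725 reads were assigned to genes per library, and 1 read was worth 0.866 to 0.947 normalized counts, so that 3 reads, the limit set by a count of 0, correspond to 2.60 to 2.84. The labels were checked on CTNNB1, which measured 27059.8 ± 3820.4 in OE with Dox and 3345 ± 276 in OE without Dox, against 2383 ± 271 in KO and 3814 ± 573 in WT (mean ± SD, n = 3, 3, 5 and 3). No KO library reached the lowest WT library, but transcript was still present in KO (log2 fold change -0.67, SE 0.13, 95% interval -0.94 to -0.41, adjusted p = 0.001), and these counts do not show which part of the transcript remained. A log2 fold change is that of the first-named group over the second, fitted on log2(normalized count + 1), and a gene is called where limma's p, adjusted over all 17102 genes tested, is under 0.05. Of the tissue's markers, NKX2-1 averaged 494 in OE with Dox, 1872 in OE without Dox, 2774 in KO and 553 in WT. NKX2-1, a defining factor of the MGE, was thus lower in WT than in OE without Dox or KO, and it was called higher in OE without Dox than in WT (log2 fold change 1.77, adjusted p = 0.017) and in KO than in WT (log2 fold change 2.35, adjusted p = 0.00038).

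Promoter sequence is shown for both genes that moved with Dox, CCNG2 and CDKN1B, and for CDK4 and MYCN, which hold the words known for MYC and for TCF/LEF factors without a called change. The sequences are RefSeq's on GRCh38.p14, 250 bases ending just before the RefSeq gene start, 5′ to 3′ on the gene's strand, and 7 of the 10 genes had an entry: CCND3, CDK4, CDK6, MYCN, CDKN1B, CCNG2 and BTG3. Capitals mark each match, on either strand, to one of the following words. For TCF/LEF factors they were CTTTGAA with its variant CTTTGAT, and also CTTTGTA with its variant CTTTGTT. MYC with MAX binds the E-box CACGTG, and FOXO factors bind GTAAACA. The E2F words were TTTCCCGC, TTTGGCGC, TTTCGCGC and TTTGCCGC, and the general words were CCAAT for the CCAAT box and GGGCGG for the GC box.
CCNG2, chr4:77156957-77157206, plus strand: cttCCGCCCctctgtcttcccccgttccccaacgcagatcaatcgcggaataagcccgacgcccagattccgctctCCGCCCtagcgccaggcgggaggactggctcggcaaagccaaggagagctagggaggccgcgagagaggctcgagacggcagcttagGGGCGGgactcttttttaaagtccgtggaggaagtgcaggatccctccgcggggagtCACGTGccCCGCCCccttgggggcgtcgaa
CDKN1B, chr12:12717118-12717367, plus strand: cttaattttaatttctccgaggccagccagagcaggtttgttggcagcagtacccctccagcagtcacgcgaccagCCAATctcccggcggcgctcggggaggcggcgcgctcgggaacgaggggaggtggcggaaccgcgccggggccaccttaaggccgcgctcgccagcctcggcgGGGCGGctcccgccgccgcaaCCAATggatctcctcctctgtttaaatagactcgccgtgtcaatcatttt
CDK4, chr12:57752311-57752560, minus strand: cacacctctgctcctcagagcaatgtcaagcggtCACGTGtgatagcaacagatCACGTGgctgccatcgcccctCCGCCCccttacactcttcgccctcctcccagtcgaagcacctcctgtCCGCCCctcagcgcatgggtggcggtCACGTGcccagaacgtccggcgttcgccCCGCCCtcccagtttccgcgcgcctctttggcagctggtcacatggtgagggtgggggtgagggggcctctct
MYCN, chr2:15940300-15940549, plus strand: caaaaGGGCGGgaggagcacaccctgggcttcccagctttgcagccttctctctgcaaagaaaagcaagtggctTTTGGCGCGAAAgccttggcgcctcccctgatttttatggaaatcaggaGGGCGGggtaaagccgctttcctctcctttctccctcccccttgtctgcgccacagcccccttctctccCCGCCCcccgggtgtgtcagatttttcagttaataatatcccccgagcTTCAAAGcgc
Among 35116 RefSeq promoters of the same length, 12.0% held a TCF/LEF word, 6.34% the E-box, 2.98% the FOXO word, 2.79% an E2F word, 32.0% CCAAT and 42.6% the GC box. The CCNG2 promoter held 1 E-box, 30 to 25 bases before the start, and 4 GC boxes, with no TCF/LEF or FOXO word in these 250 bases. CDKN1B had CCAAT at 174 to 170 and at 50 to 46 bases before the start and 1 GC box. The CDK4 promoter held 3 E-boxes and 3 GC boxes. MYCN carried the reverse complement of a TCF/LEF word 10 to 4 bases before its start, overlapping E2F words on both strands at 176 to 165 bases, and 3 GC boxes. CDK6 held 3 GC boxes in the window before its first RefSeq start, and BTG3 held 2. A match is a run of letters, not a shown binding site.

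The knockout was set against WT to ask how loss of beta-catenin bears on these genes. CCND1, CDK6 and BTG3 were lower in KO, and the other 7 genes passed no test in either direction. These 3 calls of 10 stand beside 13.8% of the 17102 genes tested (6.64% higher and 7.15% lower), and the median log2 fold change was -0.15 over the 10 genes and -0.017 over all genes tested. The groups did not overlap for 2 of the 10 genes, CCND1 and BTG3, which 18.1% of all genes also showed. Doxycycline was set against no drug in the overexpression line to ask how gain of beta-catenin bears on them. CCNG2 rose, CDKN1B fell, and the other 8 genes passed no test, CCND1 and MYC among them. These 2 calls of 10 compare with 25.7% of all genes tested (12.8% higher and 12.9% lower), and the groups were apart for 2 of 10 genes, where 40.7% of all genes showed this. With 10 genes these shares are coarse, and with Dox the share called did not exceed the background. The plot of all values per library shows these levels gene by gene.

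**Figure D1:**
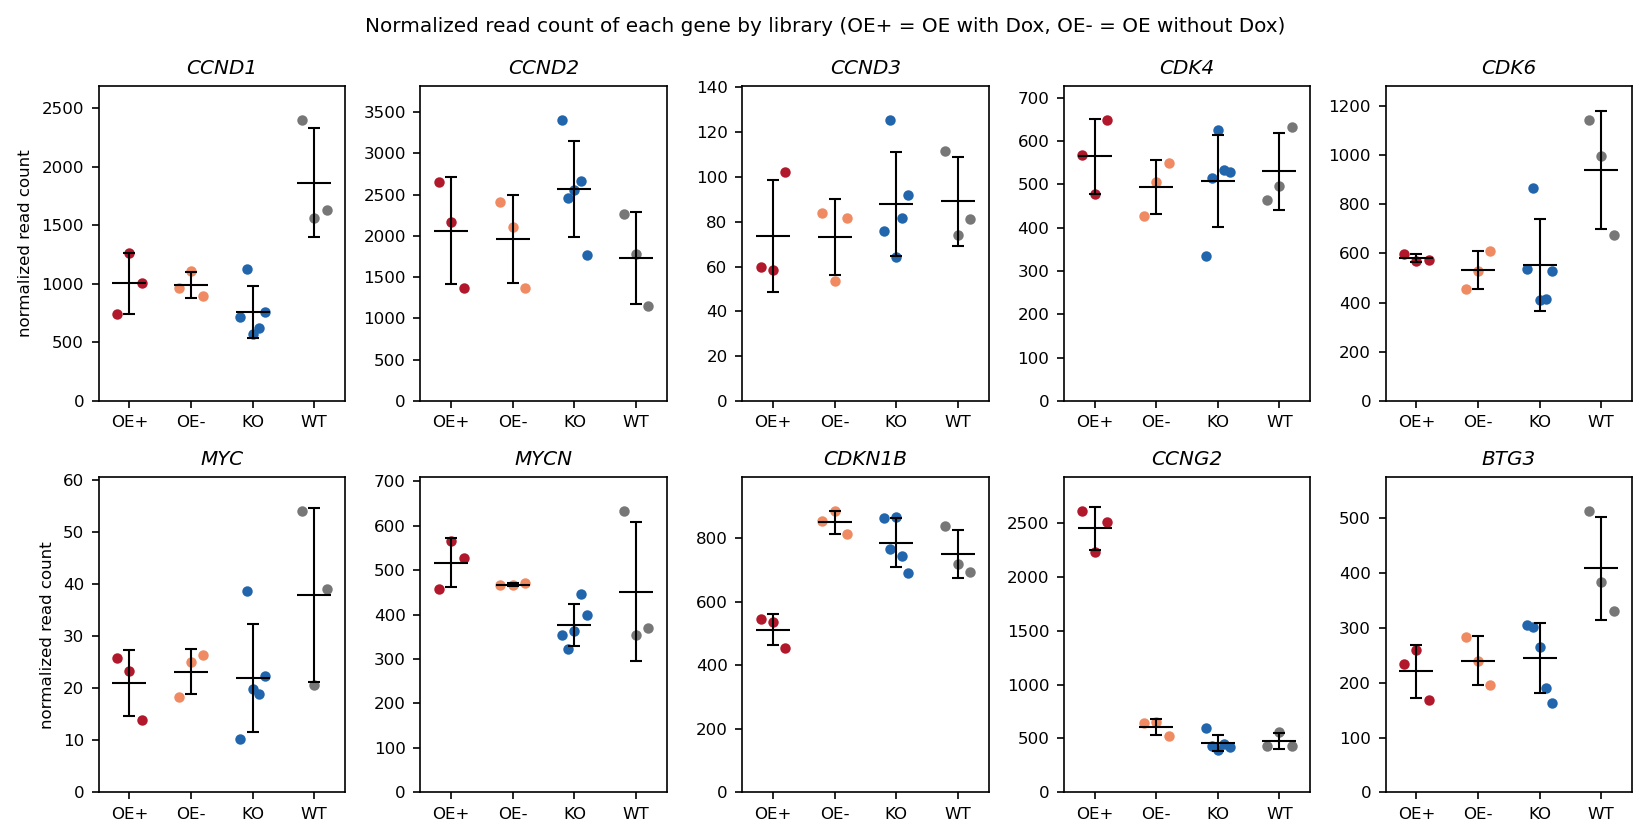
Normalized read count of each of the 10 genes in every library (points), with the mean and SD of each group (bars), for OE with Dox (OE+), OE without Dox (OE-), KO and WT; each panel has its own linear scale. All 5 KO libraries of CCND1 lie between 574 and 1129, below the lowest WT library at 1559, while CCNG2 lies between 2228 and 2607 in OE with Dox and at or below 653 elsewhere.

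CCND1 (ENSG00000110092, hg38 chr11:69641156-69654474, plus strand) encodes cyclin D1. It had 742, 1260.3 and 1007 normalized counts in OE with Dox, 966, 1108 and 895 in OE without Dox, 714, 1129, 574, 619.8 and 761 in KO and 2402, 1559 and 1635 in WT. The 3 WT libraries were the highest of all 14, and none of the other 11 reached the lowest of them. Between KO, at 759.8 ± 219 (SD, n = 5), and WT, at 1865 ± 466 (SD, n = 3), the log2 fold change was -1.31 (SE 0.21, 95% interval -1.75 to -0.87, adjusted p = 0.00032). The call held without any 1 of the 8 libraries, with log2 fold changes from -1.46 to -1.11 and adjusted p from 2.9e-05 to 0.0028. Between OE with Dox and OE without Dox the means were 1003 ± 259 and 989 ± 108 (SD, n = 3 each), and the difference did not pass (log2 fold change -0.0077, SE 0.23, 95% interval -0.50 to 0.49, adjusted p = 0.99). That interval leaves out changes as large as the one between KO and WT. The uninduced line was itself lower than WT (log2 fold change -0.89, SE 0.23, 95% interval -1.39 to -0.40, adjusted p = 0.033), 1 call of 10 in a comparison that called 5.74% of all genes (3.43% higher and 2.32% lower). That call was lost without WT 1 (adjusted p = 0.12), WT 3 (0.066), OE without Dox 1 (0.11) or OE without Dox 3 (0.11).

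CCND2 (ENSG00000118971, chr12:4269771-4305353, plus strand) encodes cyclin D2, the D cyclin of many forebrain progenitors in mouse. Its normalized counts were 2654, 2170.1 and 1367 in OE with Dox, 2411, 2104 and 1374 in OE without Dox, 3409, 2456, 2552, 2659.9 and 1764 in KO and 2269, 1785 and 1156 in WT. All 4 groups overlapped, and replicate 1 was the highest library of each. The KO mean of 2568 ± 586 (SD, n = 5) was above the WT mean of 1737 ± 558 (SD, n = 3), but the difference did not pass (log2 fold change 0.59, SE 0.26, 95% interval 0.024 to 1.15, adjusted p = 0.18). With Dox the log2 fold change was 0.058 (95% interval -0.57 to 0.69, adjusted p = 0.91). CCND3 (ENSG00000112576, chr6:41934934-42050357, minus strand), the cyclin D3 gene, was far below both, with 60.0, 58.6 and 102 normalized counts in OE with Dox, 84.1, 53.7 and 81.6 in OE without Dox, 75.7, 126, 64.2, 81.7 and 92.2 in KO and 112, 74.2 and 81.4 in WT. It showed no called change, at a log2 fold change of -0.034 in KO against WT (95% interval -0.54 to 0.48) and -0.011 with Dox (95% interval -0.58 to 0.56).

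Levels were set per kilobase of exon for a rough comparison between genes. The length was the union of all exons in GENCODE 44, so a transcript shorter than that union is understated. On this scale CCND1 averaged 211 normalized counts in OE with Dox, 208 in OE without Dox, 159.6 in KO and 392 in WT. CCND2 averaged 258, 246, 321 and 217 per kilobase in OE with Dox, OE without Dox, KO and WT. CCND3 stayed between 12.7 and 15.5 per kilobase in the group means. By these means cyclin D1 was the leading D-cyclin transcript in WT and cyclin D2 in the other 3 groups. Of the summed D-cyclin level per kilobase, CCND1 made up 44.2% ± 11.4 in OE with Dox, 45.1% ± 5.64 in OE without Dox, 32.3% ± 8.05 in KO and 63.0% ± 5.16 in WT (mean ± SD). CCND2 made up 53.0% ± 12.3, 52.1% ± 6.07, 64.6% ± 8.82 and 34.5% ± 5.43 in the same order. In single libraries the CCND1 share reached 52.8% in OE with Dox and 50.2% in OE without Dox, so CCND2 did not lead in each of them.

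The balance between paralogs was tested within libraries, as log2 ratios of normalized counts, in 6 comparisons with exact two-sided permutation tests. The log2 ratio of CCND1 to CCND2 was -1.77 ± 0.55 in KO and 0.13 ± 0.35 in WT (SD, n = 5 and 3), a difference of -1.90 with no overlap between groups (exact permutation p = 0.0357, adjusted p = 0.214 over the 6 tests). With 56 splits of 5 against 3 libraries, that p is the smallest the test can give. The same ratio was -1.02 ± 0.73 in OE with Dox and -0.95 ± 0.35 in OE without Dox, a difference of -0.066 (exact permutation p = 0.9, n = 3 each). The ratio of CDK6 to CDK4 was 0.093 ± 0.61 in KO and 0.80 ± 0.63 in WT (exact permutation p = 0.179), and it was 0.05 ± 0.21 in OE with Dox and 0.10 ± 0.044 in OE without Dox (exact permutation p = 0.8). For MYC to MYCN it was -4.15 ± 0.72 in KO and -3.59 ± 0.42 in WT (exact permutation p = 0.321), and -4.60 ± 0.53 in OE with Dox and -4.29 ± 0.26 in OE without Dox (exact permutation p = 0.7). Since 3 libraries against 3 cannot give a p below 0.1, the smallest adjusted p possible over these 6 tests is 0.0714, so no ratio could pass at 0.05 and the adjusted values do not show that the ratios were alike.

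**Figure D2:**
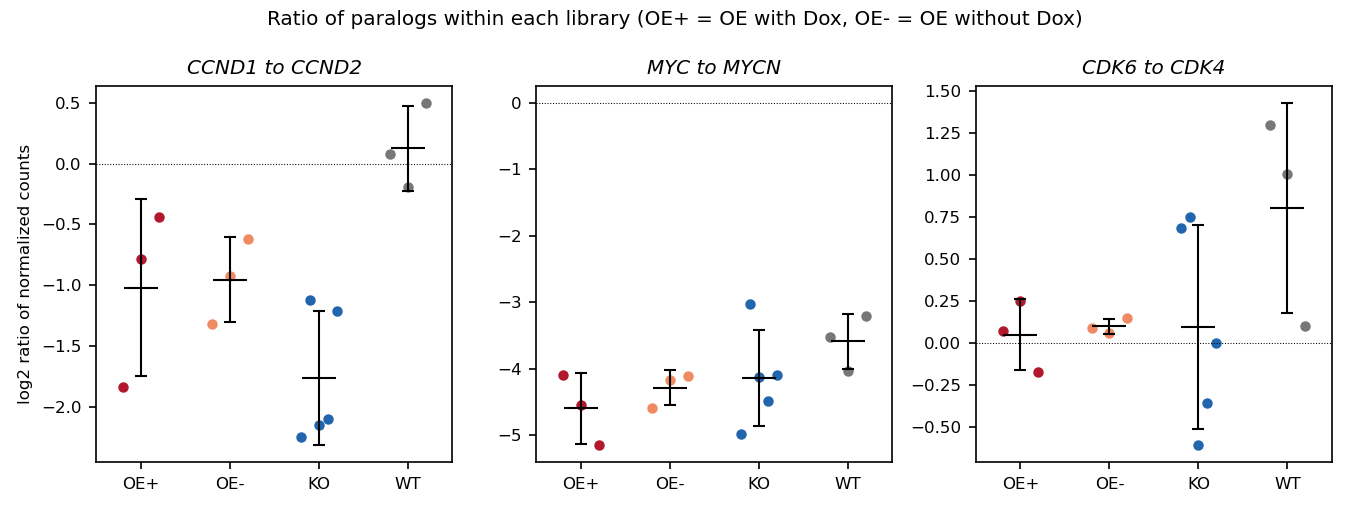
Log2 ratio of normalized counts of CCND1 to CCND2, MYC to MYCN and CDK6 to CDK4 in each library (points), with the mean and SD of each group, for OE with Dox (OE+), OE without Dox (OE-), KO and WT. The CCND1 to CCND2 ratio averages -1.77 in KO and 0.13 in WT with no overlap, and MYC lies far below MYCN in all libraries.

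CDK6 (ENSG00000105810, chr7:92604921-92836573, minus strand), a catalytic partner of the D cyclins, had 597, 568 and 575 normalized counts in OE with Dox, 454, 528 and 609 in OE without Dox, 539, 867, 409, 416 and 529 in KO and 1144, 997 and 677 in WT. KO 2 lay apart from the other KO libraries and above WT 3, so the KO and WT groups overlapped. CDK6 fell to 552 ± 186 in KO (SD, n = 5), against 939 ± 239 in WT (SD, n = 3; log2 fold change -0.79, SE 0.21, 95% interval -1.23 to -0.34, adjusted p = 0.017). Leaving out WT 1 (log2 fold change -0.63, adjusted p = 0.096) or WT 2 (-0.73, adjusted p = 0.075) ended this call, and without KO 2 it was -0.97 (adjusted p = 0.00077). OE without Dox lay below WT in all 3 libraries, yet the test did not pass (log2 fold change -0.80, SE 0.24, 95% interval -1.30 to -0.30, adjusted p = 0.056). Dox made no called difference (log2 fold change 0.14, SE 0.24, 95% interval -0.36 to 0.64, adjusted p = 0.72). CDK4 (ENSG00000135446, chr12:57747727-57756013, minus strand), the other partner, had 568, 477 and 649 in OE with Dox, 427, 506 and 549 in OE without Dox, 335, 516, 624, 533 and 528 in KO and 464, 495 and 631 in WT. Its groups overlapped throughout, with log2 fold changes of -0.08 in KO against WT (95% interval -0.45 to 0.29) and 0.19 with Dox (95% interval -0.22 to 0.60). Per kilobase CDK4 led in all groups, with 79.2% ± 2.42 of the CDK4 and CDK6 sum in OE with Dox, 78.7% ± 0.519 in OE without Dox, 78.1% ± 7.12 in KO and 68.9% ± 8.83 in WT. These shares depend on the exon lengths used, 3094 bases for CDK4 and 12239 for CDK6.

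MYC (ENSG00000136997, chr8:127735434-127742951, plus strand) was scarce in these cells. It had 25.9, 23.2 and 13.8 normalized counts in OE with Dox, 18.3, 25.0 and 26.3 in OE without Dox, 10.2, 38.7, 19.8, 18.9 and 22.4 in KO and 54.0, 20.6 and 39.0 in WT, from 11 to 57 reads per library. WT 1 was the highest library and KO 1 the lowest, and the groups overlapped. Neither main comparison passed, at a log2 fold change of -0.77 in KO against WT (SE 0.36, 95% interval -1.54 to -0.0042, adjusted p = 0.2) and -0.17 with Dox (SE 0.41, 95% interval -1.02 to 0.69, adjusted p = 0.81). At this depth these intervals are the widest of the 10 genes, so the missing calls do not show that MYC stayed level. In KO against WT the unadjusted p was 0.049 by limma. MYCN (ENSG00000134323, chr2:15940550-15947007, plus strand) had 457, 566 and 528 in OE with Dox, 465, 466 and 470.5 in OE without Dox, 354, 322, 364, 446 and 398 in KO and 632, 353 and 369 in WT. WT 1 was again the highest library, and all 5 KO libraries lay below the 3 of OE without Dox. MYCN was the 1 of the 10 genes whose KO and OE without Dox libraries did not overlap, beside 6.86% of all genes. Neither main comparison was called (log2 fold change -0.22, adjusted p = 0.47 in KO against WT and log2 fold change 0.14, adjusted p = 0.64 with Dox). Per kilobase MYC made up 1.82% ± 0.660 of the MYC and MYCN sum in OE with Dox, 2.19% ± 0.388 in OE without Dox, 2.63% ± 1.48 in KO and 3.60% ± 0.998 in WT. The exon length used was 6109 bases for MYC and 2755 for MYCN, and these shares depend on it.

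CCNG2 (ENSG00000138764, chr4:77157207-77433388, plus strand) showed the largest change of the 10 genes in any comparison. It had 2607, 2228 and 2508 normalized counts in OE with Dox, 641, 653 and 519 in OE without Dox, 593, 431, 398, 449 and 422 in KO and 427, 560.4 and 433 in WT. The 3 OE with Dox libraries stood well above all others. The mean was 2447 ± 197 in OE with Dox and 605 ± 74.0 in OE without Dox (SD, n = 3 each), a ratio of 4.05 (log2 fold change 2.02, SE 0.16, 95% interval 1.69 to 2.35, adjusted p = 2.8e-08). Without any 1 of the 6 libraries the log2 fold change ran from 1.91 to 2.09. KO against WT was not called (log2 fold change -0.049, SE 0.14, 95% interval -0.35 to 0.25, adjusted p = 0.88).

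CDKN1B (ENSG00000111276, chr12:12685498-12722369, plus strand) had 545, 538 and 456 normalized counts in OE with Dox, 854, 886 and 813 in OE without Dox, 866, 767, 866, 746 and 689.9 in KO and 838, 720.4 and 696 in WT. All 3 OE with Dox libraries lay below all the others. It fell to 513 ± 49.3 in OE with Dox, against 851 ± 36.3 in OE without Dox (SD, n = 3 each; log2 fold change -0.73, SE 0.13, 95% interval -1.0 to -0.46, adjusted p = 0.00028), and the call held without any 1 of the 6 libraries. The p27 gene and the cyclin G2 gene, both linked to arrest, therefore moved in opposite directions with Dox. KO and WT were not distinguished by the test, at a log2 fold change of 0.066 (95% interval -0.18 to 0.31). GPR19, which overlaps CDKN1B on the opposite strand, also fell with Dox (44.7 in OE with Dox and 132 in OE without Dox, log2 fold change -1.61, adjusted p = 3.5e-05). The strand setting of the counting is not given, so reads of the overlapping stretch cannot be told apart. BTG3 (ENSG00000154640, chr21:17593653-17612945, minus strand) had 235, 260.2 and 168 in OE with Dox, 284, 241 and 196 in OE without Dox, 305, 302, 265, 191 and 164 in KO and 513, 383 and 331 in WT. The 3 WT libraries were the highest of the 14. BTG3 fell to 245 ± 64.6 in KO (SD, n = 5), against 409 ± 93.8 in WT (SD, n = 3; log2 fold change -0.75, SE 0.22, 95% interval -1.21 to -0.30, adjusted p = 0.026). This call ended without WT 1 (log2 fold change -0.58, adjusted p = 0.13), WT 2 (-0.79, adjusted p = 0.06), KO 4 (-0.68, adjusted p = 0.064) or KO 5 (-0.62, adjusted p = 0.058). Dox made no called difference to it (log2 fold change -0.13, SE 0.24, 95% interval -0.64 to 0.38, adjusted p = 0.75).

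**Figure D3:**
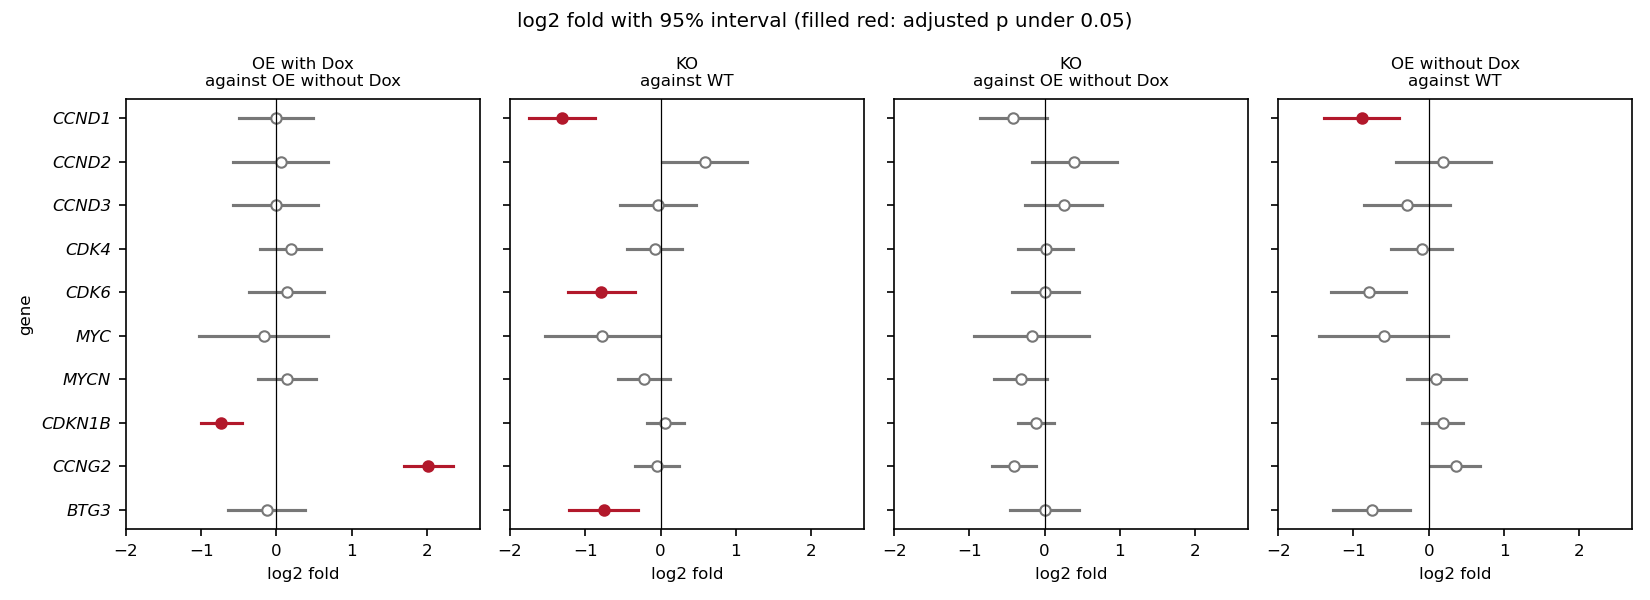
Log2 fold change (points) with 95% interval (lines) of each of the 10 genes in 4 comparisons, OE with Dox against OE without Dox, KO against WT, KO against OE without Dox and OE without Dox against WT, with filled red points for an adjusted p under 0.05. CCNG2 at 2.02 and CDKN1B at -0.73 stand out with Dox, CCND1, CDK6 and BTG3 lie below 0 in KO against WT, and no gene is filled in KO against OE without Dox.

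KO and OE without Dox were each set against the same 3 WT libraries, so their values share those controls and are given side by side. CCND1 was -1.31 in KO against WT and -0.89 in OE without Dox against WT, CDK6 was -0.79 and -0.80, and BTG3 was -0.75 and -0.76 on the log2 scale. Of these, CCND1 passed the test in the uninduced line (adjusted p = 0.033), with CDK6 at adjusted p = 0.056 and BTG3 at 0.078. These calls moved with the processing: CDK6 passed by DESeq2 (adjusted p = 0.021), with upper-quartile scaling (0.048) and with only the compared groups (0.034). BTG3 passed by DESeq2 (adjusted p = 0.039) and with only the compared groups (0.047), and CCND1 was lost with no filter (0.063). Replicate numbers may pair the libraries of this comparison, from correlations of 0.17 to 0.28 and not from the labels. With the replicate block BTG3 passed as well (log2 fold change -0.76, adjusted p = 0.0051), giving 2 calls of 10 in place of 1. That block was fitted over all 14 libraries, so it also joined KO with WT, where the numbers did not pair. OE without Dox and WT did not overlap for these 3 of the 10 genes, beside 23.0% of all genes, and the 3 are named here for being low against the same WT libraries in KO. KO was also set directly against OE without Dox, a comparison with no WT library. None of the 10 genes passed there (limma, 1 of 10 at an unadjusted p under 0.05, 0 of 10 by edgeR and by DESeq2), where 2.11% of all genes did (0.351% higher and 1.75% lower). The log2 fold changes were -0.42 for CCND1 (95% interval -0.86 to 0.026), 0.0097 for CDK6 (-0.44 to 0.45) and 0.003 for BTG3 (-0.46 to 0.46). The gene at an unadjusted p under 0.05 was CCNG2 (log2 fold change -0.41, SE 0.14, 95% interval -0.70 to -0.11, adjusted p = 0.25). Of the 6 WNT feedback genes, 3 fell in KO in this comparison, AXIN2, LEF1 and SP5, with AXIN2 at 93.4 ± 13.3 in KO and 173 ± 25.4 in OE without Dox (log2 fold change -0.88, adjusted p = 0.00096). Against WT, OE with Dox was lower in CCND1 (log2 fold change -0.90, adjusted p = 0.01), CDKN1B (log2 fold change -0.55, adjusted p = 0.0042) and BTG3 (log2 fold change -0.89, adjusted p = 0.014) and higher in CCNG2 (log2 fold change 2.38, adjusted p = 5.1e-09), 4 calls of 10 beside 20.5% of all genes (10.4% higher and 10.1% lower). The CCND1 call there ended without WT 1 or OE with Dox 1 (adjusted p = 0.055 in each), and the BTG3 call without WT 1 (0.069) or OE with Dox 3 (0.076). For CDK6 every OE with Dox library lay below every WT library, yet limma did not call it (log2 fold change -0.66, 95% interval -1.16 to -0.16, adjusted p = 0.058). It passed by DESeq2 (adjusted p = 0.030), with upper-quartile scaling (0.039) and with only the compared groups (0.030).

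Whether the effect of Dox differed from the effect of the knockout was tested as the difference of both log2 fold changes, which share no library. It passed for CCND1 (difference 1.30, SE 0.31, 95% interval 0.64 to 1.96, adjusted p = 0.0045), CDK6 (difference 0.93, SE 0.32, 95% interval 0.26 to 1.59, adjusted p = 0.035), CDKN1B (difference -0.80, SE 0.17, 95% interval -1.16 to -0.44, adjusted p = 0.0016) and CCNG2 (difference 2.07, SE 0.21, 95% interval 1.62 to 2.51, adjusted p = 6.6e-07), 4 of 10 genes (3 positive and 1 negative) beside 28.8% of all genes (15.1% positive and 13.6% negative). For CCND1 and CDK6 the change was called in KO against WT and not with Dox, and for CDKN1B and CCNG2 it was called with Dox and not in KO against WT. Both effects start from different controls, where OE without Dox against WT was -0.89 for CCND1 (called) and -0.80 for CDK6 (not called). KO against OE without Dox was called for neither, at -0.42 for CCND1 and 0.0097 for CDK6. The part of the high WT values in these differences was not tested. The CDK6 difference lost its call in 11 of 14 fits without 1 library, at adjusted p up to 0.095.

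CCND1 and MYC were compared with genes that respond to beta-catenin in most tissues. AXIN2, a negative feedback gene of the pathway, measured 3044, 3374 and 3232 normalized counts in OE with Dox, 193, 144 and 181 in OE without Dox, 112, 98.2, 77.5, 95.2 and 84.1 in KO and 273, 289 and 262 in WT. It was highest with Dox and lowest in KO, without overlap between groups. LEF1, a TCF/LEF factor, averaged 1845 ± 207 in OE with Dox and 222 ± 31.1 in OE without Dox (SD, n = 3 each), against 91.3 ± 22.8 in KO and 427 ± 81.5 in WT (SD, n = 5 and 3). Of the 6 feedback genes AXIN2, LEF1, NKD1, SP5, RNF43 and ZNRF3, all 6 rose with Dox (median log2 fold change 5.32) and 5 fell in KO against WT (median -1.41). In OE without Dox against WT, 4 of the 6 were also called lower (median -0.75), as was CCND1 (log2 fold change -0.89). CCND1 thus moved with the feedback genes in KO against WT, at -1.31, but stayed at -0.0077 (95% interval -0.50 to 0.49) in the libraries where they rose. MYC was not called in either direction.

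**Figure D4:**
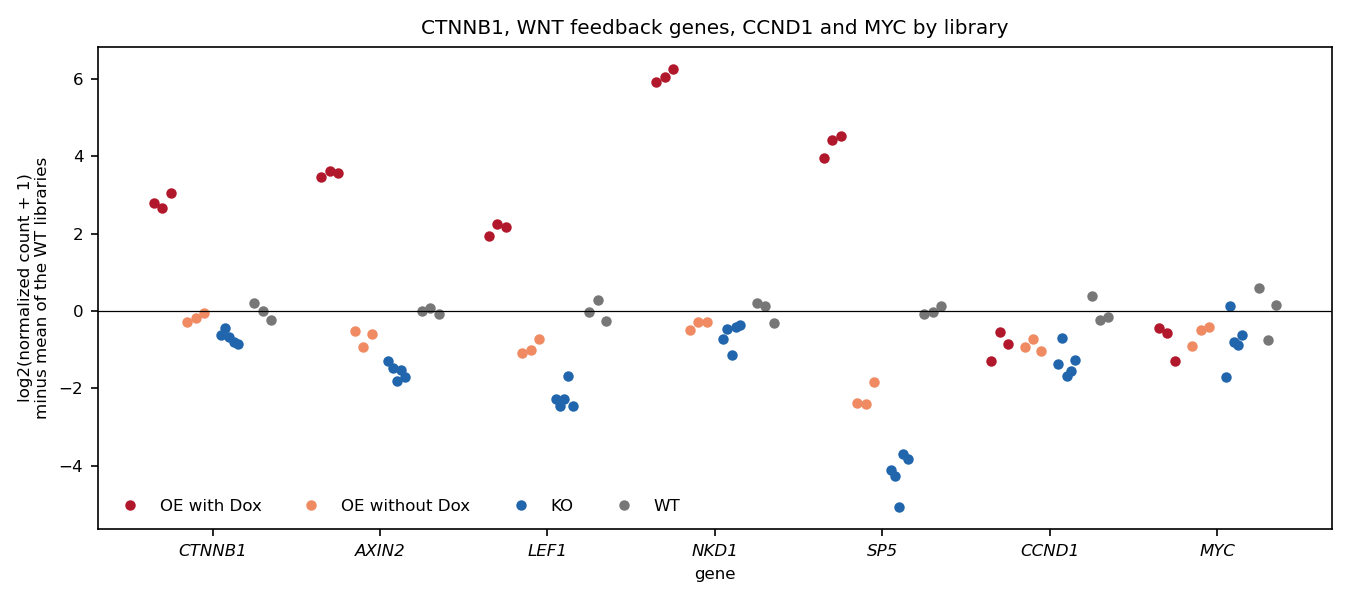
Difference of log2(normalized count + 1) from the WT mean for CTNNB1, AXIN2, LEF1, NKD1, SP5, CCND1 and MYC in each library (points), for OE with Dox, OE without Dox, KO and WT. The feedback genes shown lie far above 0 in OE with Dox and below 0 in KO, whereas CCND1 lies below 0 in both and also in OE without Dox.

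Related genes of the G1 machinery were read in the same fits, from lists that were also drawn up with earlier results of these data known. Over 9 such lists, 22 of 100 tested genes were called with Dox, beside 25.7% of all genes, and 6 of 100 in KO against WT, beside 13.8%. Of 13 genes of the RB family and E2F factors, none passed in KO against WT (limma, 0 at an unadjusted p under 0.05, 0 by edgeR and DESeq2; median log2 fold change -0.14). With Dox 2 fell, E2F7, a repressive E2F (log2 fold change -0.76, adjusted p = 0.0032), and TFDP2, a dimer partner of E2F factors (log2 fold change -0.77, adjusted p = 0.006). Of 11 genes of the cyclin E, cyclin A and CDK2 machinery, 1 fell in KO: CCNE1, the cyclin E1 gene, averaged 45.4 ± 8.70 in KO (SD, n = 5) and 79.4 ± 4.94 in WT (SD, n = 3; log2 fold change -0.81, adjusted p = 0.008). With Dox 2 fell and 1 rose: MNAT1, a subunit of the CDK-activating kinase, rose (log2 fold change 0.62, adjusted p = 0.039), and CDC25A, a phosphatase that activates CDK2, fell (log2 fold change -0.55, adjusted p = 0.047). The other that fell was CCNA1, a cyclin A gene best known from the germline, which averaged 23.7 ± 9.54 in OE with Dox and 97.1 ± 19.0 in OE without Dox (SD, n = 3 each; log2 fold change -2.06, adjusted p = 1.2e-05).

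Among 6 other inhibitors of cyclin-dependent kinases tested, 2 rose and 2 fell with Dox. CDKN2B, which encodes p15, had 267 reads over the 3 OE with Dox libraries and 13 over the 3 OE without Dox libraries (log2 fold change 3.94, adjusted p = 0.0003). CDKN1A, which encodes p21, rose to 613 ± 26.9 in OE with Dox, against 356 ± 81.8 in OE without Dox (SD, n = 3 each; log2 fold change 0.80, adjusted p = 0.013). CDKN2C, the p18 gene (log2 fold change -0.98, adjusted p = 0.0031), and CDKN2D, the p19 gene (log2 fold change -0.60, adjusted p = 0.026), fell. CDKN1A was also higher in KO, at 874 ± 259 (SD, n = 5), than in OE without Dox (log2 fold change 1.26, adjusted p = 0.0015), but no inhibitor of this list passed in KO against WT (limma, 1 of 6 at an unadjusted p under 0.05, 0 by edgeR, 1 by DESeq2). Inhibitor genes thus moved in both directions with Dox, as CDKN1B and CCNG2 did.

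Of 10 partners in the MYC network, MYCL, the third MYC family gene, fell in KO (114 ± 25.8 in KO and 224 ± 36.5 in WT, SD, n = 5 and 3; log2 fold change -0.98, adjusted p = 0.0019). MXD1, a repressor that competes with MYC for MAX, fell with Dox (88.8 ± 23.1 in OE with Dox and 172 ± 27.8 in OE without Dox, SD, n = 3 each; log2 fold change -0.97, adjusted p = 0.0087). Of 18 ribosome biogenesis and metabolism genes known as MYC targets, 1 fell in KO against WT, ODC1 of polyamine synthesis (log2 fold change -0.46, adjusted p = 0.006), and 2 rose with Dox, HSPD1 (log2 fold change 0.46, adjusted p = 0.014) and RRP9 (log2 fold change 0.76, adjusted p = 0.038). The median log2 fold changes of these 18 genes were -0.22 in KO against WT and 0.023 with Dox. In the BTG/TOB and cyclin G and I list, none of 6 passed in KO against WT (limma, 1 at an unadjusted p under 0.05, 0 by edgeR and DESeq2), whereas with Dox BTG1, an anti-proliferative gene, fell (log2 fold change -1.09, adjusted p = 0.0023) and CCNI, the cyclin I gene, rose (log2 fold change 0.67, adjusted p = 0.0099).

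FOXO factors are known to drive CDKN1B and CCNG2 in other cells. Of 10 FOXO genes and classic targets, none passed in KO against WT (limma, 3 at an unadjusted p under 0.05, 1 by edgeR, 3 by DESeq2), and 2 fell with Dox: FOXO6 (log2 fold change -1.23, adjusted p = 0.0046) and PIK3IP1, an inhibitor of PI3 kinase (log2 fold change -1.10, adjusted p = 0.0068). No gene of that list was called higher with Dox, and the part of FOXO factors in the CDKN1B and CCNG2 values was not tested. Among 9 genes that act on the turnover of D cyclins and MYC, none passed in KO against WT (limma, 0 at an unadjusted p under 0.05, 0 by edgeR and DESeq2). With Dox, FBXW7, a ubiquitin ligase subunit that recognises MYC and cyclin E, fell to 164 ± 12.1 in OE with Dox, against 383 ± 54.7 in OE without Dox (SD, n = 3 each; log2 fold change -1.21, adjusted p = 3.7e-05). GSK3B, a kinase that marks beta-catenin, MYC and cyclin D1 for degradation, fell too (log2 fold change -0.55, adjusted p = 0.0038), and FBXO31, a ligase subunit for cyclin D1, rose (log2 fold change 1.08, adjusted p = 0.00062).

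The proliferation readout, 17 genes of mitosis and DNA replication, had 3 genes lower in KO against WT, CCNB1 (log2 fold change -0.64, adjusted p = 0.01), BUB1 (log2 fold change -0.67, adjusted p = 0.021) and AURKA (log2 fold change -0.51, adjusted p = 0.046), with a median log2 fold change of -0.36. With Dox 3 other genes fell, PLK1 (log2 fold change -0.54, adjusted p = 0.037), MKI67 (log2 fold change -0.54, adjusted p = 0.038) and TOP2A (log2 fold change -0.57, adjusted p = 0.039), with a median of -0.35. In OE with Dox against WT, 9 of the 17 fell, with a median of -0.58, MCM4 of the replicative helicase (log2 fold change -0.78, adjusted p = 0.024) and TOP2A (log2 fold change -0.69, adjusted p = 0.016) among them, beside 10.1% of all genes. Their summed level per library ran from 11228 to 18008 in OE with Dox and 17276 to 22127 in OE without Dox, and from 13375 to 19748 in KO and 18365 to 24606 in WT. The sums overlapped within each pair. The highest single sum was a WT library, and the WT means were also the highest for CCND1, CDK6, BTG3, MYC and CCND3. Of these, MYC and CCND3 were not called in KO against WT. The part of proliferation in the values of these genes was not tested. In bulk RNA, fewer cells of a type and less RNA per cell cannot be told apart.

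**Figure D5:**
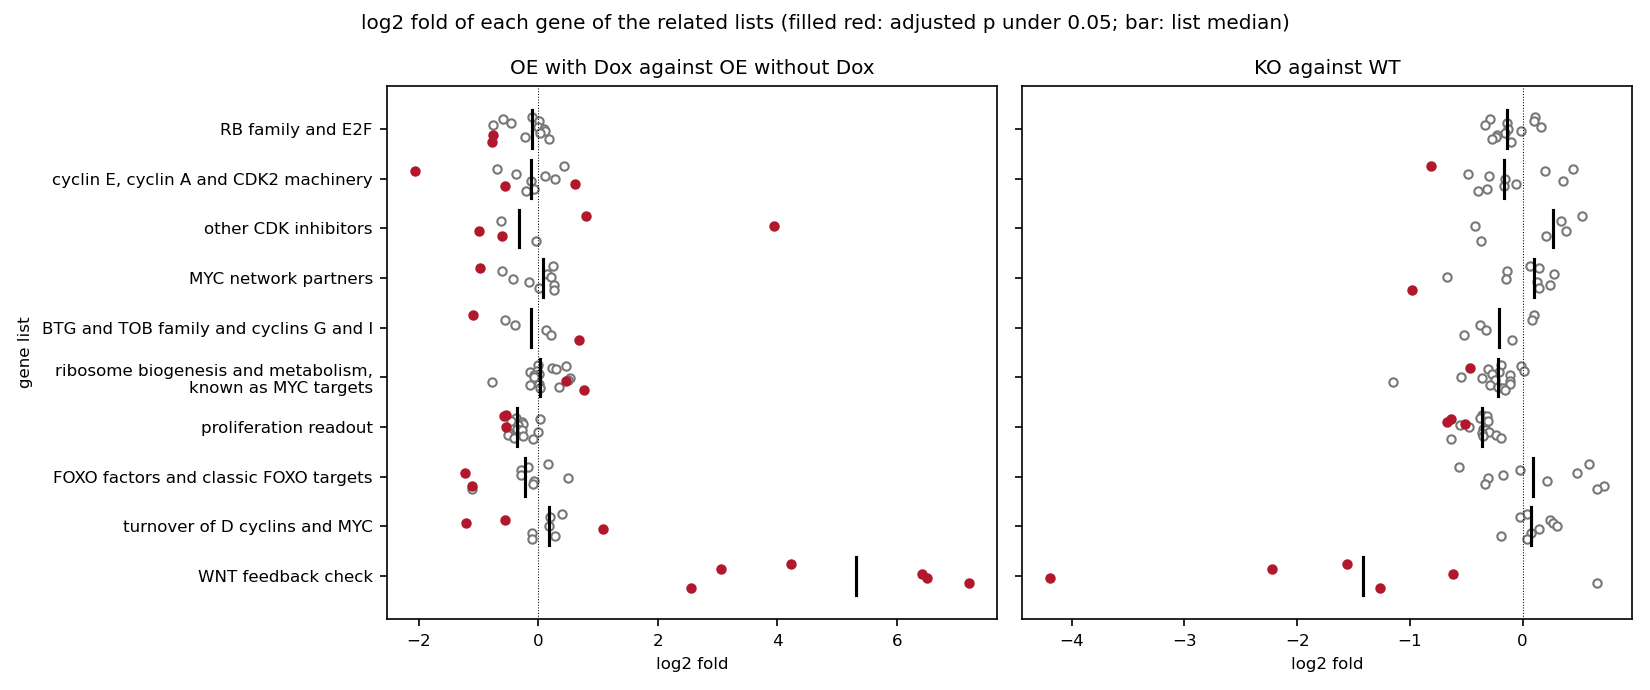
Log2 fold change of each tested gene (points) of 10 related lists, with the median of each list (bars), in OE with Dox against OE without Dox and in KO against WT. The WNT feedback genes lie at a median of 5.32 with Dox and -1.41 in KO against WT, while the medians of the other 9 lists lie between -0.36 and 0.27.

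Markers of several cell types moved with both comparisons. The counts of called markers below stand beside the shares of all genes tested. With Dox 12.8% were called higher and 12.9% lower, and in KO against WT 6.64% higher and 7.15% lower. Summed over 7 neuron markers, the level ran from 2109 to 2826 in OE with Dox and 10222 to 12330.5 in OE without Dox, and from 11918 to 13626 in KO and 5149.8 to 6488 in WT. Of these 7, 6 fell with Dox and 6 rose in KO against WT. The 6 markers of MGE and neural progenitors summed to 4498 to 6237 in OE with Dox and 12541 to 16413 in OE without Dox, against 12927 to 17379.7 in KO and 12969 to 13005 in WT, and 5 fell with Dox while 2 rose and 1 fell in KO. Most markers of both lists thus fell with Dox. The 7 mesenchyme markers summed to 1407 to 6498 in OE with Dox and 337 to 1768 in OE without Dox, and to 240.0 to 455 in KO and 506 to 1859.9 in WT, with 4 of the 7 higher with Dox and 1 lower in KO. The 4 neural crest and Schwann markers summed to 19.4 to 40.0 in OE with Dox and 11.8 to 41.6 in OE without Dox, and to 16.1 to 51.0 in KO and 16.1 to 106 in WT, while SOX10 was at 0 in all groups. Of the 2 that could be tested, ERBB3 fell in KO (log2 fold change -2.48, adjusted p = 0.013), and neither was called with Dox (limma, 0 at an unadjusted p under 0.05, 0 by edgeR and 0 by DESeq2). The 4 endothelial markers summed to 78.5 to 154 in OE with Dox and 11.8 to 41.6 in OE without Dox, and to 3.69 to 13.4 in KO and 36.0 to 68.8 in WT, with PECAM1 at 1 to 3 reads per group, and both that could be tested rose with Dox and fell in KO. For the 4 pluripotency markers, DPPA4 held most of the sum of 59.0 to 119 in OE with Dox and 111 to 163 in OE without Dox, and of 267 to 453 in KO and 246 to 338 in WT, while POU5F1 had 2 to 4 reads per group and NANOG was at 0 in all groups but OE without Dox. DPPA4, the 1 of 4 tested, fell with Dox. These marker levels moved with CCNG2 and CDKN1B in the Dox comparison and with CCND1, CDK6 and BTG3 in KO against WT, and their part in those results was not tested.

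By the root mean square of log2 differences between centred group means, over the 4 groups and among genes with a mean of at least 100, the 3 genes most like CCND1 were CLU (0.045), GPRC5B (0.10) and ILDR2 (0.12). CLU averaged 997, 1011, 710.4 and 1814 normalized counts in OE with Dox, OE without Dox, KO and WT, close to the CCND1 means in each group. For MYC they were DTD2 (0.037), TRIM24 (0.040) and CCNF (0.052), the cyclin F gene, which averaged 175, 205, 169 and 281 in the same order. Likeness over 4 means is a weak description, and no test was made of it. Other genes that overlap a member on the opposite strand and passed the filter on low values were LTO1 at CCND1 (98.4 in OE with Dox and 150 in OE without Dox, adjusted p = 0.024, with log2 fold change 0.014 in KO against WT), TSPAN31 and MARCHF9 at CDK4, MYCNOS at MYCN and BTG3-AS1 at BTG3. The last 4 were called in neither main comparison.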

How the data were processed

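RNA was sequenced in 14 libraries of H9-derived cells in 4 groups, and the labels gave every library its group. The authors deposited normalized read counts, a signal in which each gene's reads are divided by 1 size factor per library. All low values were whole multiples of 1 step per library, and 100.0% of values gave whole reads at a tolerance of 0.01, so recovered reads could be used for count tests. Per the submitters' processing notes, the tools were TopHat2 2.1.1, HTSeq 0.9.1, R 3.4.0 and DESeq2, with build hg38. The annotation release and strand setting are not given in the sources used here. Of 58051 genes, 56948 were named with GENCODE 44.

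R 4.3.3 was used. Differences were tested with limma 3.58.1 after taking log2(normalized count + 1), with all 14 libraries, 4 group means and trended, robust empirical Bayes (10 residual degrees of freedom). The 17102 genes with at least 10 normalized counts in at least 3 libraries were tested, and called means a Benjamini-Hochberg adjusted p under 0.05 over all of them. Fold changes are on that log2 scale, which understates changes of low genes. The recovered reads were also tested with edgeR 4.0.16 (2418 genes called in KO against WT and 4420 with Dox) and with DESeq2 1.42.0 (2631 and 4515), where limma called 2359 and 4393, and further alternatives were other pseudocounts (0.5 and 5), filters, TMM and upper-quartile scaling, a replicate block and fits without 1 library. Taking numbers from the labels' titles, same-number libraries correlated above 0.1 in all 3 pairs of OE with Dox and OE without Dox (0.22 to 0.40) and of OE without Dox and WT (0.17 to 0.28), so there the numbers may pair the libraries. The other pairs of groups did not meet this. Pairing in both cases would also pair OE with Dox with WT, where the correlations were 0.037 to 0.25, so the pairing stays uncertain. The main fits and the ratio tests used no pairing, also with Dox, and the replicate block changed no Dox call of the 10 genes. Scripts were tested on simulated data. The members and lists were chosen with earlier results of these data known. From each related list of the G1 machinery, the called genes with the smallest adjusted p are named, up to 4 per main comparison. MCM4 was named outside this rule, from OE with Dox against WT, and the cell type markers were not named by it. The limit of 3 reads for a count of 0 covers counting error only. Some marker genes are not reported here.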

Additional observations from a re-analysis of the deposited data

Results flagged for a closer look

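KO, with 5 libraries, was the group large enough to look for a library that stands apart, and the 10 genes and CTNNB1 gave 11 such checks. For CDK6 the highest KO library, KO 2, had 866.8 normalized counts, and its gap to the next was 0.717 of the group's range. For CCNG2 the highest KO library, KO 1, had 593.0, with a gap of 0.737 of the range. Chance flags about 1 in 20 such groups. Without KO 2 the CDK6 log2 fold change in KO against WT was -0.97 (adjusted p = 0.00077), and without KO 1 that of CCNG2 was -0.15 (adjusted p = 0.59), by limma.

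The effect of Dox minus the effect of the knockout passed the test of the difference for 4 genes, by limma with Benjamini-Hochberg adjustment. It was 1.30 for CCND1 (adjusted p = 0.0045), 0.93 for CDK6 (adjusted p = 0.035), -0.80 for CDKN1B (adjusted p = 0.0016) and 2.07 for CCNG2 (adjusted p = 6.6e-07) on the log2 scale. CCND1 was higher in 1 of the 3 OE with Dox libraries than in all 3 OE without Dox libraries, while all 5 KO libraries lay below all 3 WT libraries. All 3 OE without Dox libraries lay below all 3 WT libraries as well, for CCND1 and for CDK6. For CCNG2 all 3 OE with Dox libraries lay above all OE without Dox libraries, and KO and WT overlapped.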

How the results depend on the processing

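In KO against WT the count of the 10 genes called was 3 under all 11 alternatives and 1 to 3 without 1 library (1 without WT 1 or WT 2). With Dox it was 2 throughout. In OE with Dox against WT it was 4 to 5, and 3 to 5 without 1 library, and for the Dox effect minus the KO effect 3 to 4 in both. In KO against OE without Dox it was 0 throughout. In OE without Dox against WT the count of 1 became 0 with no filter, 2 with upper-quartile scaling, 2 under the replicate block, 3 by DESeq2 and 3 with only the compared groups, and 0 to 1 without 1 library. All genes called there, 982, numbered 421 to 869 without 1 library (421 without OE without Dox 1, 479 without WT 3, 548 without OE without Dox 3), and the 360 in KO against OE without Dox numbered 180 to 353 (180 without OE without Dox 2). The cause of these shifts was not tested. The calls of CCND1 in KO against WT and of CCNG2 and CDKN1B with Dox held under all alternatives. CDK6 lost its KO against WT call under the block (-0.67, adjusted p = 0.071), and its difference of effects under the block (0.81, adjusted p = 0.077) and by edgeR (0.86, adjusted p = 0.053). KO 4 and KO 5 share their number with no other library, so under the block they add nothing to comparisons with KO. CCND1 in OE without Dox against WT was lost with no filter (adjusted p = 0.063).

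Replicate numbers did not pair KO with WT, where same-number pairs of libraries correlated at -0.29 to 0.24 in their deviations from group means. Of the 12 libraries numbered 1 to 3, 10 correlated best with their own number, a hint from the data and not the design. Under the replicate block, where KO 4 and KO 5 add nothing, CCND2 passed in KO against WT (0.73, adjusted p = 0.0024) and for the difference of effects (-0.67, adjusted p = 0.016). Beside these, the CDK6 calls above and BTG3 in OE without Dox against WT, the block changed no call of the 10 genes.

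Signs near 0 turned for uncalled values. CCND3 for the difference of effects was -0.014 with TMM, -0.031 with upper-quartile scaling and -0.0090 by edgeR, CCND3 in KO against WT was 0.0036 by edgeR and with Dox 0.00018 by DESeq2, CCND1 with Dox was 0.0051 by edgeR and 0.011 by DESeq2, BTG3 in KO against OE without Dox was -0.0020 with upper-quartile scaling, and CDK4 there was -0.046 under the block. Without 1 library, log2 fold changes in KO against WT ran from -0.17 to 0.14 for CCND3, -0.17 to 0.062 for CDK4, -0.37 to 0.052 for MYCN and -0.15 to 0.078 for CCNG2. With Dox they ran from -0.19 to 0.19 for CCND1, -0.18 to 0.33 for CCND2, -0.27 to 0.13 for CCND3, -0.34 to 0.093 for MYC and -0.27 to 0.057 for BTG3. In OE without Dox against WT they ran from -0.075 to 0.43 for CCND2, -0.19 to 0.036 for CDK4 and -0.047 to 0.37 for MYCN. In KO against OE without Dox they ran from -0.085 to 0.16 for CDK4, -0.17 to 0.11 for CDK6, -0.40 to 0.058 for MYC and -0.14 to 0.14 for BTG3. In OE with Dox against WT they ran from -0.017 to 0.52 for CCND2 and -0.014 to 0.22 for CDK4. The difference of effects ran from -0.24 to 0.16 for CCND3, and the log2 ratios with Dox from -0.36 to 0.34 for CCND1 to CCND2 and from -0.15 to 0.062 for CDK6 to CDK4. A fit with only the compared groups cannot give the difference of effects. Depth limits MYC most, at 11 to 57 reads per library.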
